A study of Mus musculus with 9 samples.

Results

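Genes of ectonucleotidases, the cell surface enzymes that break down nucleotides, and of the A2 receptors for adenosine were examined in the melanocyte lineage of mouse skin. They are 6 genes (Entpd1, Entpd2, Nt5e, Enpp1, Adora2a and Adora2b) of the 49671 in the deposited tables, chosen by symbol as enzymes of extracellular ATP breakdown and adenosine A2 receptors. No measured value enters that rule, but the list was drawn up with results of these libraries known, among them the higher Entpd1 level in adult stem cells than in newborn precursors. Levels against newborn cells are therefore given as a description, without p-values, and the tested aged-to-adult comparison is no independent support either.

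RNA-seq was run on cells sorted from the dermis of body skin of wild-type C57BL/6 females as positive for KIT, a receptor of the melanocyte lineage, and negative for CD45, a protein of immune cells. Melanoblasts, the precursors of melanocytes inside developing follicles, were taken at postnatal day 0.5 in 3 libraries. Quiescent melanocyte stem cells (McSC) were taken from adults aged 8 to 10 weeks in 4 libraries, and from aged mice of 24 months in 2. The hair of both these groups was resting (telogen). Each library pooled cells of several animals, so the spread is that between pools. Pups and adults were bred in house from C57BL/6J stock and the aged mice came at 21 months from the NIA colony, so colony and age cannot be told apart.

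ATP that leaves a cell is a danger signal read by P2 receptors. At the cell surface, the NTPDase CD39 (Entpd1) takes ATP and ADP to AMP, and ENPP1 cuts ATP to AMP and pyrophosphate. The 5′-nucleotidase CD73 (Nt5e) turns AMP into adenosine. Adenosine acts on 4 receptors, of which both A2 receptors couple to Gs and raise cyclic AMP, and it restrains immune cells in many tissues. In skin, CD39 is known from Langerhans cells, regulatory T cells and endothelium, and NTPDase2 (Entpd2) from glia such as Schwann cells.

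All 6 members are protein coding in the mm10 annotation. Entpd1 (ENSMUSG00000048120) lies at chr19:40612366-40741602 on the plus strand, and Entpd2 (ENSMUSG00000015085) at chr2:25395874-25401321 on the plus strand. Nt5e (ENSMUSG00000032420) lies at chr9:88327197-88372092 on the plus strand, and Enpp1 (ENSMUSG00000037370) at chr10:24637914-24712159 on the minus strand. Adora2a (ENSMUSG00000020178) lies at chr10:75316877-75334784 and Adora2b (ENSMUSG00000018500) at chr11:62248984-62266453, both on the plus strand. Of the exonic bases of Entpd2, 28.8% (612 bases) also belong to Npdc1, a neighbour on the same strand, so reads there cannot be assigned with certainty.

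RefSeq start sites (GRCm38.p6) gave promoter windows for 5 of the 6 members. The 250 bases before each start are shown for Entpd1, which has a second start inside the gene, and for Entpd2, because both were highest in adult McSC and low in the other groups. Capitals mark matches on either strand to the motifs searched: AP-1 (TGANTCA), the cyclic AMP response element core (TGACG), the GC box (GGGCGG), the hypoxia response core (ACGTG or GCGTG), STAT (TTCNNNGAA), the MITF E-box (CACGTG or CATGTG) and the SOX core (ACAAAG or ACAATG).
Entpd1 first start, plus strand, chr19:40612116-40612365: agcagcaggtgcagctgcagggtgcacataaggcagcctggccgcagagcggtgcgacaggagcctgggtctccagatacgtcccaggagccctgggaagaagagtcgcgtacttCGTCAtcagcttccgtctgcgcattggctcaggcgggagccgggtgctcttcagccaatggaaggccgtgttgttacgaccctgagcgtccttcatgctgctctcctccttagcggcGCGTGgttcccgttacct
Entpd1 second start, plus strand, chr19:40659520-40659769: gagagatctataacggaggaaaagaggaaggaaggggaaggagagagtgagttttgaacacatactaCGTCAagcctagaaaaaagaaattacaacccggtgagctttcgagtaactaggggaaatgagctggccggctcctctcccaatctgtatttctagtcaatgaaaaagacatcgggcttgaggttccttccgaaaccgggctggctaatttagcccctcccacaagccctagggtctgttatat
Entpd2, plus strand, chr2:25395624-25395873: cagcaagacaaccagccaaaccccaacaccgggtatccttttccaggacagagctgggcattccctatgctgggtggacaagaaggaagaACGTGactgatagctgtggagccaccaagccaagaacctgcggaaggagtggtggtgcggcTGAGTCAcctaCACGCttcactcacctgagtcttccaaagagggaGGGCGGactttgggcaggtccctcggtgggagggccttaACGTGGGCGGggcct

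Entpd1 and Entpd2 shared few of these letters. Each Entpd1 window held 1 cyclic AMP core, a motif found in 17.8% of all 32851 windows of this length, and the window of the first start also held a hypoxia core (38.6% of windows). Entpd2 held the AP-1 match TGAGTCA at 99 to 93 bases before its start (6.7% of windows), 2 GC boxes (32.7%) and 3 hypoxia cores, the last of which overlaps the GC box nearest the start. GC boxes numbered 4 in the Nt5e window, 6 in that of Adora2b, 1 in that of Enpp1 and 0 in either Entpd1 window. Enpp1 held 1 cyclic AMP core that overlaps 1 of its 2 hypoxia cores. STAT (7.0% of windows), MITF (17.6%) and SOX (25.2%) letters were absent from the member windows. A match describes letters and is no binding site.

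Library totals ran from 12594770 to 33710117 counts and were lowest in the aged group. Melanoblast replicate 3 and adult replicate 2 lay away from their groups towards each other on the leading principal component of log2 CPM, so results are also given without them. Kit averaged 2733 CPM (counts per megacount of the library, scaled with TMM factors) in melanoblasts, 985 in adult and 790 in aged McSC. Ptprc, which encodes CD45, averaged 1.70, 5.74 and 6.89 CPM. The 8 melanocyte markers, led by Dct, summed to 12641 to 23292 CPM in melanoblast, 4047 to 10042 CPM in adult and 6991 to 8236 CPM in aged libraries. Mast cell markers, led by Cpa3, summed to 19.7 to 33.6, 8.99 to 12.4 and 9.30 to 10.6 CPM, and those of pericytes and smooth muscle, led by Cspg4, to 139.7 to 267, 103.5 to 121.5 and 81.2 to 104.8 CPM. No list had a marker at 0 in every library of a group. Olfactory and vomeronasal receptor genes (1431 genes, which skin is not known to use) served as a measure of background. They took 253 ± 96.5 ppm of counts (SD, n = 3) in melanoblasts, 1088 ± 274 (n = 4) in adult and 1521 ± 74.8 (n = 2) in aged libraries, and the 95th percentile of their group means was 0.857, 1.94 and 2.37 CPM.

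Entpd1 and Entpd2, the NTPDases of the list, were high in adult McSC and low before and after. Entpd1 stood at 6.04, 6.10 and 2.21 CPM in the melanoblast libraries, at 27.4, 22.8, 25.1 and 19.1 CPM in adult McSC and at 5.74 and 4.92 CPM in aged McSC. Every adult library lay above every other library, whereas the aged and melanoblast ranges overlapped. On average the adult level of 23.6 ± 3.52 CPM (SD, n = 4) was 4.94-fold that of melanoblasts (4.78 ± 2.23, n = 3), a log2 fold change of 2.31 (SE 0.315).

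Entpd1 then fell in aged McSC, to 5.33 ± 0.581 CPM (SD, n = 2). The level was 4.41-fold lower than in adult McSC, with a log2 fold change of -2.14 (SE 0.365, edgeR adjusted p = 0.00482), and 2 of 2 aged libraries lay below 4 of 4 adult ones. By p-value it was number 29 of 31961 genes in that comparison, in which 0.303% of genes passed the threshold of 0.05 (17 higher and 80 lower). It was not called without aged replicate 2 (log2 fold change -2.0, edgeR adjusted p = 0.303), where 3 genes in all were called higher and 10 lower. Without the 2 libraries that lay apart, the difference was -2.16 (edgeR adjusted p = 0.000273).

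Entpd2 had the same profile at lower counts. Its values were 1.80, 2.61 and 1.61 CPM in melanoblasts, 8.10, 6.33, 10.7 and 6.33 CPM in adult McSC and 1.98 and 0.695 CPM in aged McSC, the last from 49 and 12 counts. Again the adult libraries lay above all others, and the aged range overlapped that of melanoblasts. Adult McSC averaged 7.87 ± 2.08 CPM (SD, n = 4), 3.91-fold the melanoblast level of 2.01 ± 0.530 (n = 3), at a log2 fold change of 1.97 (SE 0.412).

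In aged McSC Entpd2 fell to 1.34 ± 0.910 CPM (SD, n = 2), 5.76-fold below the adult level, with a log2 fold change of -2.53 (SE 0.500, edgeR adjusted p = 0.0195). Both aged libraries were under the 95th percentile of receptor genes in the same library, against 0 of 4 adult and 0 of 3 melanoblast libraries. With values per kilobase of exon, 1 of the 2 aged libraries was under it. The call was lost without aged replicate 2 (-1.95, edgeR adjusted p = 0.956), without adult replicate 1 (adjusted p = 0.0661) or 3 (adjusted p = 0.121), with a stricter filter (adjusted p = 0.0902) and with TMM factors from abundant genes (-2.19, adjusted p = 0.192). Without aged replicate 1 the difference grew to -3.53. The neighbour Npdc1, which shares exon bases with Entpd2, averaged 9.70, 8.96 and 6.01 CPM in melanoblast, adult and aged libraries. Its aged level was 1.49-fold below the adult one (log2 fold change -0.57, SE 0.353), a difference that did not pass (edgeR adjusted p = 0.577). The part of shared reads in the Entpd2 values was not tested.

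**Figure D1:**
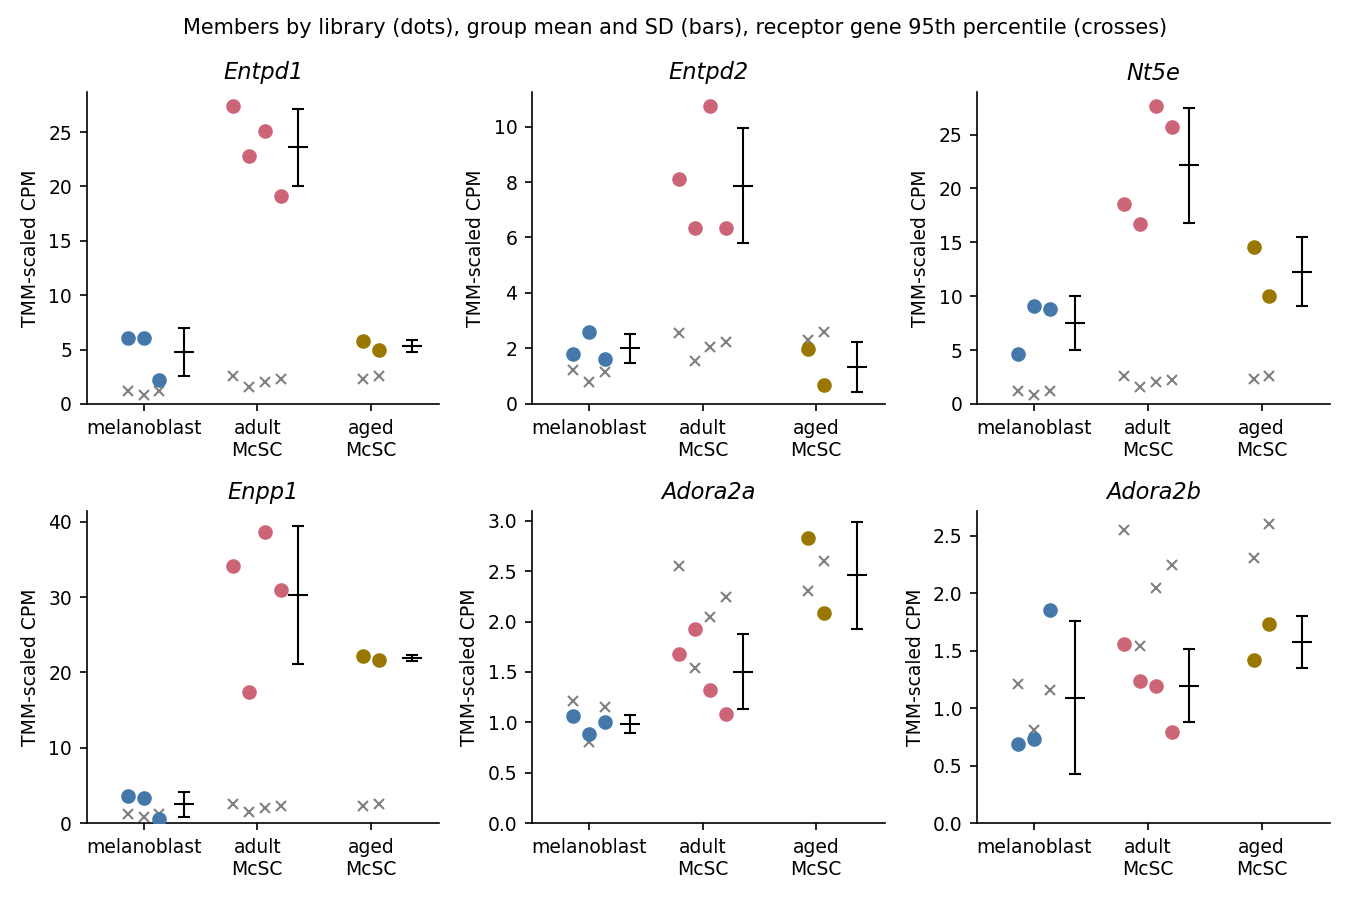
Each dot is 1 library, on a linear axis of TMM-scaled CPM that starts at 0, with bars for the group mean and SD and crosses for the 95th percentile of receptor genes in that library. Entpd1 and Entpd2 peak in adult McSC, Enpp1 stays near 22 CPM in both aged libraries, and most dots of Adora2a and Adora2b lie under or close to their crosses.

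Schwann cell markers were, like both NTPDase genes, highest in adult McSC. Their summed melanoblast level averaged 63.5% of the adult mean, against 20.3% for Entpd1 and 25.5% for Entpd2. The 10 markers summed to between 620 and 857 CPM in melanoblast, 1018 and 1455 CPM in adult and 454 and 525 CPM in aged libraries. Of these, 4 of 10 were higher in adult McSC than in melanoblasts, beside 15.1% of all genes. In aged against adult McSC 5 of 10 fell, beside 0.25% of all genes, and 0 rose. Pmp22, a myelin gene and the most abundant of them, averaged 453.5 CPM in adult and 188 CPM in aged McSC. Scn7a, a sodium channel gene named after its values were seen, averaged 236 and 12.7 CPM. The 8 endothelial markers summed to 53.5 to 93.5, 80.6 to 281 and 54.3 to 62.7 CPM in the same order. Among them, 4 of 8 were higher in adult McSC than in melanoblasts, beside the same 15.1% of all genes. In aged against adult McSC, edgeR called 0 of 8, DESeq2 called 1 lower and limma voom 0, with 6 lower at an unadjusted p under 0.05. Pecam1, an endothelial adhesion gene and the most abundant of them, averaged 41.0 CPM in adult and 17.0 CPM in aged McSC. The 10 immune markers were not lower in aged libraries, at 25.4 to 39.7, 41.3 to 65.9 and 60.5 to 78.8 CPM. The part of other cell types in the Entpd1 and Entpd2 differences was not tested. In pooled cells, fewer cells of a type and less RNA per cell cannot be told apart.

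Enpp1, which makes AMP and the mineralization inhibitor pyrophosphate, differed most of the 6 genes between adult McSC and melanoblasts and stayed high in aged McSC. It was at 3.55, 3.28 and 0.602 CPM in melanoblasts, at 34.1, 17.4, 38.7 and 30.9 CPM in adult McSC and at 22.2 and 21.6 CPM in aged McSC. All McSC libraries lay above all melanoblast libraries, and the aged values fell inside the adult range because adult replicate 2 was low. The adult mean of 30.3 ± 9.19 CPM (SD, n = 4) was 12.3-fold the melanoblast mean of 2.48 ± 1.63 (n = 3), a log2 fold change of 3.62 (SE 0.423).

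Aged McSC held Enpp1 at 21.9 ± 0.389 CPM (SD, n = 2), 8.91-fold above melanoblasts (log2 fold change 3.16, SE 0.451). Against adult McSC the difference of -0.47 (SE 0.408) did not pass (edgeR adjusted p = 0.710), nor did it under any of 17 alternative settings. In melanoblast replicate 3, 12 counts put Enpp1 under the receptor gene percentile of that library. Leaving out that library and adult replicate 2 gave log2 fold changes against melanoblasts of 3.34 in adult McSC and 2.68 in aged McSC. In aged against adult McSC it gave -0.66.

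Keratinocyte and hair follicle markers were, like Enpp1, higher in adult McSC than in melanoblasts, but did not follow it among adult libraries. As a percentage of the adult mean, their sum was 70.7% and Enpp1 112.7% in adult replicate 1. In adult replicate 2 these were 84.0% and 57.4%. The 12 genes summed to between 314 and 669 CPM in melanoblast, 1377 and 2537 CPM in adult and 1115 and 1283 CPM in aged libraries. Of the 11 tested, 10 were higher in adult McSC than in melanoblasts, beside 15.1% of all genes. In aged against adult McSC, edgeR called 0 of the 11, with 3 higher and 2 lower at an unadjusted p under 0.05, whereas DESeq2 called 2 lower and limma voom 2 higher and 2 lower. Cdh3, a cadherin and the most abundant of them, averaged 390.4, 498 and 367 CPM in the 3 groups. It did not pass between adult McSC and melanoblasts (edgeR adjusted p = 0.359). How far these cells contribute to the Enpp1 level was not tested.

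Nt5e, the gene of CD73 that makes adenosine from AMP, was intermediate in aged McSC. Its values were 4.67, 9.07 and 8.78 CPM in melanoblasts, 18.5, 16.7, 27.6 and 25.7 CPM in adult McSC and 14.6 and 10.0 CPM in aged McSC. The 3 ranges did not overlap, although aged replicate 2 exceeded the highest melanoblast library by less than 1 SD of either group. The adult mean of 22.1 ± 5.32 CPM (SD, n = 4) was 2.94-fold that of melanoblasts (7.51 ± 2.46, n = 3), a log2 fold change of 1.56 (SE 0.286).

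The aged Nt5e mean of 12.3 ± 3.21 CPM (SD, n = 2) was 1.80-fold below the adult one (log2 fold change -0.85, SE 0.319). That difference did not pass the test over all genes (edgeR adjusted p = 0.382) and did so in 1 of 17 alternatives, limma voom (adjusted p = 0.0308). The 9 fibroblast and dermal papilla markers, of cells known to carry CD73, summed to 550 to 2073, 473 to 943 and 120 to 233 CPM in melanoblast, adult and aged libraries. Of these 9, edgeR called 3 collagen genes lower and 0 genes higher in aged against adult McSC, among them Col3a1 (170.0 to 23.0 CPM). Over all genes, 0.25% were called lower there. At an unadjusted p under 0.05 in edgeR, 4 were lower and 1 higher. DESeq2 called 3 of 8 lower, and limma voom 2 lower and 1 higher. In adult McSC against melanoblasts, 1 of the 9 rose and 4 fell, whereas Nt5e was higher. Over all 31961 genes, 4836 rose and 5840 fell. The part of these cells in the aged level of Nt5e was not tested.

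The adenosine receptor genes were at the edge of detection. Adora2a, the gene of the higher-affinity A2 receptor, had 17 to 20 counts per melanoblast library, 26 to 45 per adult library and 36 to 70 per aged library, or 1.06, 0.886 and 1.00 CPM, then 1.68, 1.92, 1.32 and 1.08 CPM, then 2.83 and 2.08 CPM. The groups did not overlap and were in the order of age, as were the background percentiles of 0.857, 1.94 and 2.37 CPM. It exceeded the percentile of its own library in 1 of 3, 1 of 4 and 1 of 2 libraries. Aged against adult McSC, the log2 fold change of 0.71 (SE 0.558) did not pass (edgeR adjusted p = 0.671).

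Adora2b, the gene of the lower-affinity A2 receptor, stood at 0.685, 0.730 and 1.86 CPM in melanoblasts, 1.56, 1.24, 1.20 and 0.791 CPM in adult McSC and 1.42 and 1.74 CPM in aged McSC. All groups overlapped, and 1 of 9 libraries, melanoblast replicate 3, lay above its percentile. The adult minus melanoblast difference was 0.13 (SE 0.580) and the aged minus adult difference 0.39 (SE 0.640, edgeR adjusted p = 0.863) on the log2 scale. Per kilobase of exon, which allows for the gene's length, Adora2b lay above the receptor gene percentile in 3 of 3 melanoblast, 3 of 4 adult and 2 of 2 aged libraries, so its place against background depended on the scale. Adora2a lay above it on that scale in 1 of 3, 1 of 4 and 1 of 2 libraries, as many as in CPM. Levels this low do not show that the receptors are absent.

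Across the list, 4 of 6 members were past the threshold and higher in adult McSC than in melanoblasts, in a comparison where 33.4% of all genes passed (15.1% of all genes passed and were higher). All adult libraries lay above all melanoblast libraries for 5 of 6, as they did for 19.5% of genes. That contrast was known when the list was made, and nothing is read from its counts. Against adult McSC, 2 of 6 passed in aged McSC, both lower, beside 0.25% of all genes that were lower. The aged and adult ranges did not overlap for 4 of 6, and for 27.7% of genes. The adult libraries are shared by these 2 comparisons, so a high adult value enters both. Among all genes tested, 51 (0.16%) were both higher in adult McSC than in melanoblasts and lower in aged than in adult McSC, and these made up 63.8% of the 80 genes lower in aged McSC. Between aged McSC and melanoblasts 1 of 6 passed, Enpp1, which was higher (40.7% of all genes passed, and 20.4% were higher). Both aged libraries lay above all melanoblast libraries for 3 of 6 and for 40.4% of genes.

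Scaling moved these values together. With TMM factors from abundant genes, the median log2 fold change of all genes went from 0.39 to 1.15 in adult McSC against melanoblasts, from 0.08 to 0.42 in aged against adult McSC and from 0.70 to 1.78 in aged McSC against melanoblasts. Under these factors the adult minus melanoblast differences became 3.17 for Entpd1, 2.79 for Entpd2, 2.32 for Nt5e and 4.52 for Enpp1. In aged against adult McSC, Entpd1 remained called at -1.81 (edgeR adjusted p = 0.0428). Between aged McSC and melanoblasts, Entpd2 changed from -0.56 to 0.60 and Entpd1 from 0.16 to 1.36, so no order of those 2 groups is given for either gene.

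**Figure D2:**
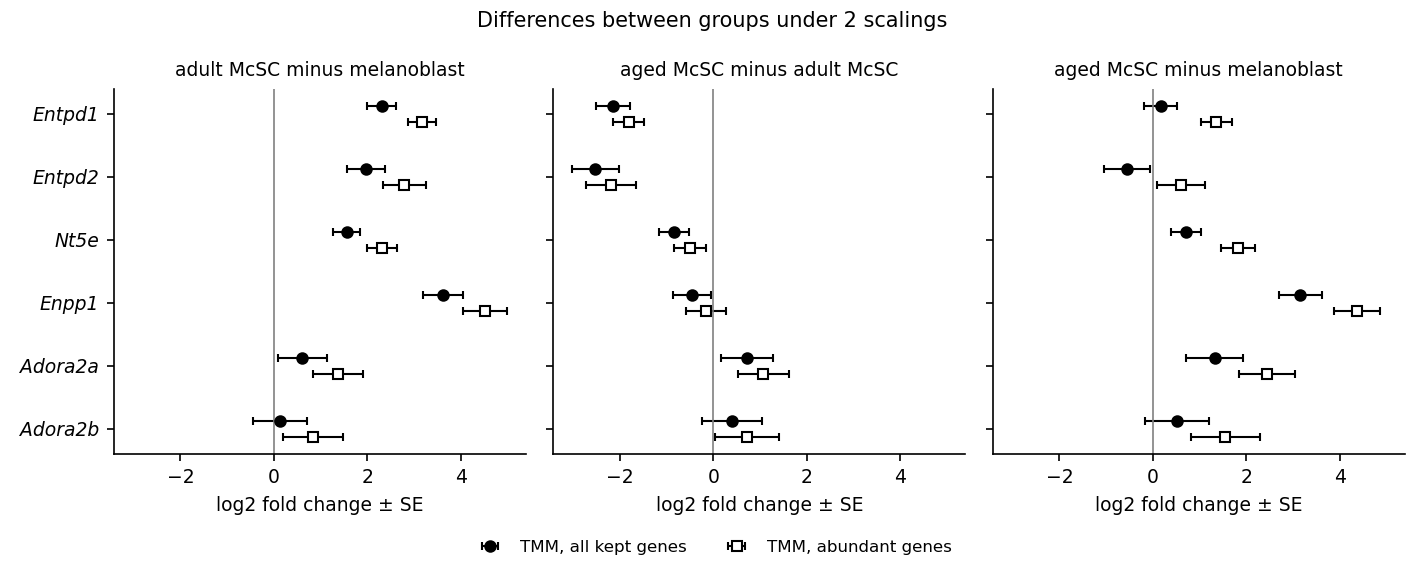
Points are log2 fold changes with their SE for each member in the 3 comparisons, filled for TMM factors from all kept genes and open for factors from abundant genes. In aged minus adult McSC, Entpd1 (-2.14 and -1.81) and Entpd2 (-2.53 and -2.19) lie left of 0 under both, whereas in aged McSC minus melanoblast Entpd2 lies on either side of 0.

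Levels of different genes were compared per kilobase of merged exons. Among the enzymes, melanoblasts had similar levels of Entpd1 (0.857 CPM per kilobase), Entpd2 (0.943) and Nt5e (0.873), with Enpp1 at 0.242. With merged exons, adult McSC ranked Entpd1 first at 4.23, then Entpd2 at 3.70, Enpp1 at 2.95 and Nt5e at 2.57 CPM per kilobase. In aged McSC the order was Enpp1 at 2.14, Nt5e at 1.43, Entpd1 at 0.955 and Entpd2 at 0.629 CPM per kilobase. The order depended on the length used. Per kilobase of the longest transcript, the adult levels were 5.59 for Entpd1, 5.54 for Nt5e, 4.47 for Enpp1 and 4.07 for Entpd2. Nt5e then led in melanoblasts at 1.88, before Entpd1 at 1.13, Entpd2 at 1.04 and Enpp1 at 0.366, and the aged order was as with merged exons.

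The receptor gene percentile on the merged exon scale was 0.276, 0.575 and 0.731 CPM per kilobase in melanoblast, adult and aged libraries. Of the enzymes, Enpp1 in melanoblasts and Entpd2 in aged McSC averaged less than that. Adora2a was at 0.321, 0.490 and 0.802 CPM per kilobase, under the percentile in adult McSC. Adora2b was at 0.591, 0.649 and 0.854 CPM per kilobase, above it in all 3 groups.

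The summed level of the 4 enzymes was 2.91 ± 0.736 CPM per kilobase in melanoblasts (SD, n = 3), 13.5 ± 2.5 in adult (n = 4) and 5.15 ± 0.943 in aged McSC (n = 2). Entpd1 and Entpd2 made up 60.9 ± 8.59% of it in melanoblasts, 59.2 ± 6.07% in adult and 30.3 ± 4.77% in aged McSC. In the 2 aged libraries the share was 33.7% and 27.0%, below the lowest value of any other library (51.6%). Enpp1 held 7.86%, 21.6% and 42.1% of the sum and Nt5e 31.2%, 19.2% and 27.5%. In aged McSC, Enpp1 thus held a larger share of a smaller sum than in adult McSC, and the NTPDases a smaller share. The mean Enpp1 level itself was not higher, at 2.14 CPM per kilobase in aged against 2.95 in adult McSC. These shares are a description without a test, and they inherit the low aged counts of Entpd2.

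**Figure D3:**
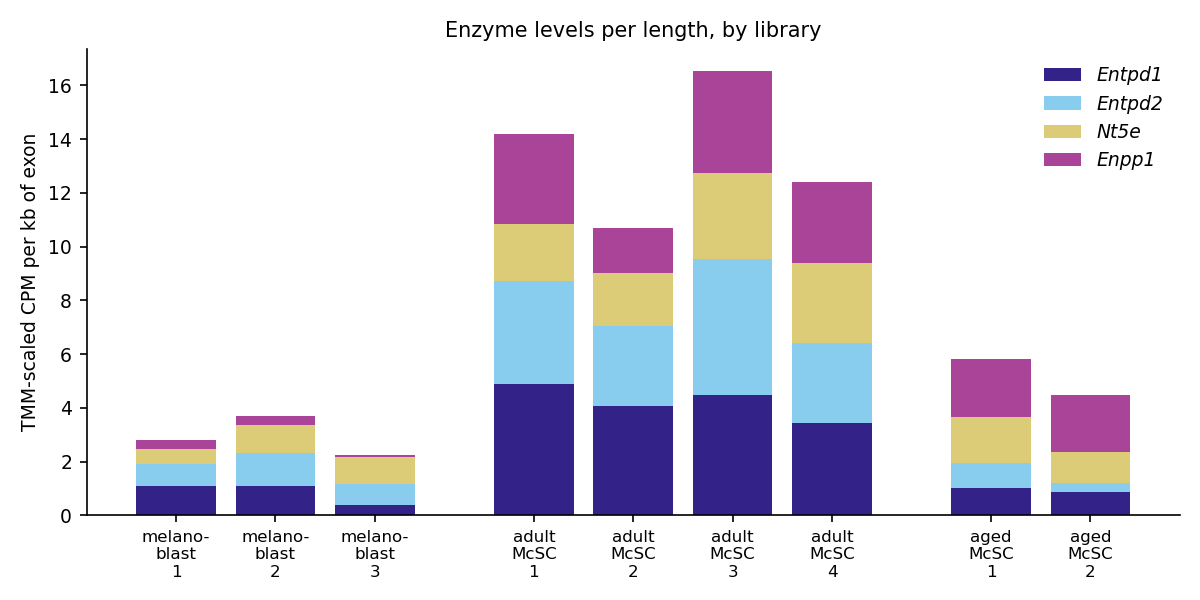
Stacked bars give the TMM-scaled CPM per kilobase of merged exon of the 4 enzymes in each library, on an axis that starts at 0. The Entpd1 and Entpd2 segments shrink from 59.2% of the adult bars on average to 30.3% of the aged ones, and the Enpp1 segment makes up 42.1% of the latter.

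Genes with the most similar profile were sought among 11414 abundant protein-coding genes, by Pearson correlation of log2 CPM over the 9 libraries. These points share library, depth and group, so the values describe likeness only. Closest to Entpd1 were Gfra3 (r = 0.990), a GDNF family co-receptor, Stard13 (0.983) and Tmem88b (0.983). Gfra3 averaged 1.53, 16.6 and 1.82 CPM in melanoblast, adult and aged libraries. Closest to Entpd2 were Igfbp7 (0.969), an insulin-like growth factor binding protein, Itga1 (0.963), an integrin subunit, and Tubb6 (0.946), with Igfbp7 at 8.08, 39.9 and 5.61 CPM.

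Nt5e ran most closely with Pdzrn4 (0.977), Rapgefl1 (0.968) and Nxn (0.964), of which Rapgefl1 averaged 6.05, 27.1 and 18.6 CPM. The nearest genes to Enpp1 were Arhgef5 (0.994), Serpinb5 (0.994), the epithelial serpin maspin, and Dsp (0.993), which encodes the desmosome protein desmoplakin. Dsp is also one of the 12 keratinocyte markers and averaged 50.7, 386 and 269 CPM.

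**Figure D4:**
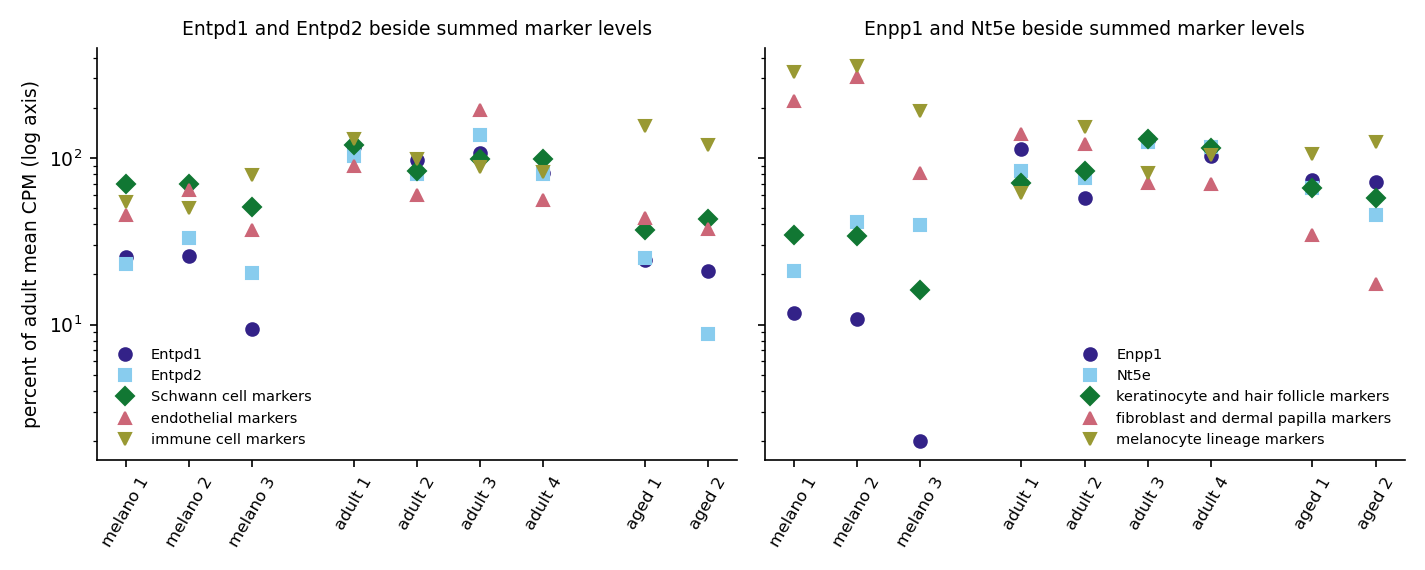
Members and summed marker lists are plotted per library as a percentage of their adult mean, on a log axis. In aged McSC, Entpd1 is at 20.9% to 24.3% and Schwann cell markers at 37.2% to 43.0%, while Enpp1 is at 71.5% to 73.3% and keratinocyte and hair follicle markers at 57.3% to 65.9%.

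Other genes of the pathway were taken from 8 lists by role, chosen with earlier results of these data known. Genes called between adult McSC and melanoblasts were named by smallest p, so their p-values there are no independent support. Of 87 matched genes, 84 were tested. In adult McSC against melanoblasts 22 rose and 22 fell, or 52.4% beside 33.4% of all genes, at a median log2 fold change of 0.29 (0.39 over all genes). Under the factors from abundant genes, 35 were up and 10 down, beside 10416 up and 1985 down of all 31961 genes. Without the 2 libraries that lay apart 30 rose and 24 fell, beside 8071 and 6971 of all 31557 genes.

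Other cell surface nucleotide enzymes were mostly higher in adult McSC: 7 of 10 rose and 0 fell, with a median of 1.64. Over all genes, 15.1% passed and were higher, and the median was 0.39. With factors from abundant genes 9 of 10 rose, beside 10416 of all 31961 genes, with an all-gene median of 1.15. Acpp, the transmembrane acid phosphatase that can also make adenosine from AMP, averaged 4.95 ± 0.241 CPM in melanoblasts (SD, n = 3) and 81.0 ± 26.7 CPM in adult McSC (n = 4), a rise of 4.03 on the log2 scale (SE 0.298, edgeR adjusted p = 2.56e-10). For Enpp2, the secreted lysophospholipase autotaxin, melanoblasts averaged 243 and adult McSC 1049 CPM, a rise of 2.11 on the log2 scale (SE 0.255). Enpp3, a nucleotide pyrophosphatase, rose by 2.09 and Entpd3, another NTPDase, by 2.22 on the log2 scale, both from levels near 1 CPM or less. Entpd3 went from 0.518 to 2.42 CPM, while the background percentile went from 0.857 to 1.94 CPM. In aged McSC these 4 averaged 63.0, 834, 3.76 and 2.83 CPM, and none was called against adult McSC. Per kilobase, Acpp was at 11.0 CPM in adult and 8.60 CPM in aged McSC, above each member in both groups.

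Of the 3 intracellular NTPDases tested, Entpd7 fell from 24.6 to 9.33 CPM (log2 fold change -1.40, SE 0.237), while Entpd5 and Entpd6 did not pass. The share called was 33.3%, beside 33.4% of all genes. Entpd4 and its near-identical copy Entpd4b had too few counts to be tested. Adora1, the A1 receptor gene, went from 0.290 to 1.58 CPM (a log2 fold change of 2.42, edgeR adjusted p = 0.00949), but both levels lay under the background percentile of their group. Adora3, the other adenosine receptor gene, did not pass.

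Adenosine uptake and removal had 2 genes up and 1 down of 10, or 30% beside 33.4% of all genes. Slc29a3, a nucleoside transporter of endosomes and lysosomes, fell from 84.0 to 36.8 CPM (log2 fold change -1.19, SE 0.215), a call lost with factors from abundant genes (edgeR adjusted p = 0.0627). The concentrative transporters Slc28a2 and Slc28a1 rose by 1.61 and 1.36 on the log2 scale, at low levels. They went from 1.04 to 3.19 and from 1.08 to 2.79 CPM, while the background percentile went from 0.857 to 1.94 CPM. The 2 groups overlapped for both. The Slc28a2 call was lost with the replicate block and without melanoblast replicate 1 or 2 or adult replicate 4 (edgeR adjusted p up to 0.0854). The Slc28a1 call was lost with the block and without melanoblast replicate 1 or 2, adult replicate 1 or 4 or aged replicate 1 (adjusted p up to 0.172). Ada and Adk, which deaminate and phosphorylate adenosine, did not pass.

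Among 10 genes of ATP and pyrophosphate release, 4 rose and 3 fell, or 70% beside 33.4% of all genes. Panx1, an ATP release channel, fell from 24.4 to 8.03 CPM (log2 fold change -1.60, SE 0.262), and Lrrc8a, a subunit of the volume-regulated anion channel, fell by 1.09 on the log2 scale, a call lost with factors from abundant genes (edgeR adjusted p = 0.138). Ank, which exports ATP and pyrophosphate, averaged 18.0 CPM in melanoblasts and 44.3 CPM in adult McSC (higher by 1.30 on the log2 scale, SE 0.256), and Abcc6, a transporter needed for ATP release in liver, rose by 1.55 on the log2 scale. The Abcc6 call was lost without melanoblast replicate 1 (edgeR adjusted p = 0.0503).

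Receptors for ATP and ADP mostly did not pass. Of the P2X receptors 28.6% were called and of the P2Y receptors 14.3%, beside 33.4% of all genes. P2rx7, the gene of the P2X receptor with low ATP affinity, averaged 5.80 CPM in melanoblasts and 20.1 CPM in adult McSC (higher by 1.79 on the log2 scale, SE 0.283), and P2rx4 fell from 54.6 to 28.1 CPM (-0.96), a call lost with factors from abundant genes (edgeR adjusted p = 0.315). Of 7 P2Y receptors tested 1 passed, the ADP receptor gene P2ry1, at 2.75 CPM in melanoblasts and 8.86 CPM in adult McSC (higher by 1.69 on the log2 scale, SE 0.343).

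Genes that relay Gs signals through cyclic AMP split 6 up and 16 down of 35, with a median of -0.50 (0.39 over all genes). That is 62.9% called, beside 33.4% of all genes (4836 up and 5840 down of 31961). Under factors from abundant genes these 35 split 12 up and 8 down, with a median of 0.24 (1.15 over all genes). All 31961 genes then split 10416 up and 1985 down. Adcy7, an adenylyl cyclase, fell from 122 to 26.7 CPM (log2 fold change -2.19, SE 0.230), and the cyclic nucleotide phosphodiesterase genes Pde3a and Pde8a fell by 1.98 and 1.54 on the log2 scale. Adcy1, another cyclase, was at 3.05 CPM in melanoblasts and rose by 2.49 on the log2 scale (SE 0.328) to 17.1 CPM. These 4 kept their direction and call under all 17 alternatives.

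In aged against adult McSC, edgeR called 0 of the 84 pathway genes, with 10 at an unadjusted p under 0.05 (4 higher and 6 lower). Those 10 are 11.9% of the list, beside 10.2% of all genes. DESeq2 called 0 of the 64 to which it gave an adjusted p, among them neither of the other adenosine receptors, and limma voom called 2, Ank lower and Pde4c higher. The cell surface enzymes outside the list had a median log2 fold change of -0.08 and the all-gene median was 0.08. Between aged McSC and melanoblasts, 24 pathway genes rose and 20 fell (52.4%, beside 40.7% of all genes), 8 of 10 cell surface enzymes among the former. Without aged replicate 1, 12 rose and 14 fell.

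**Figure D5:**
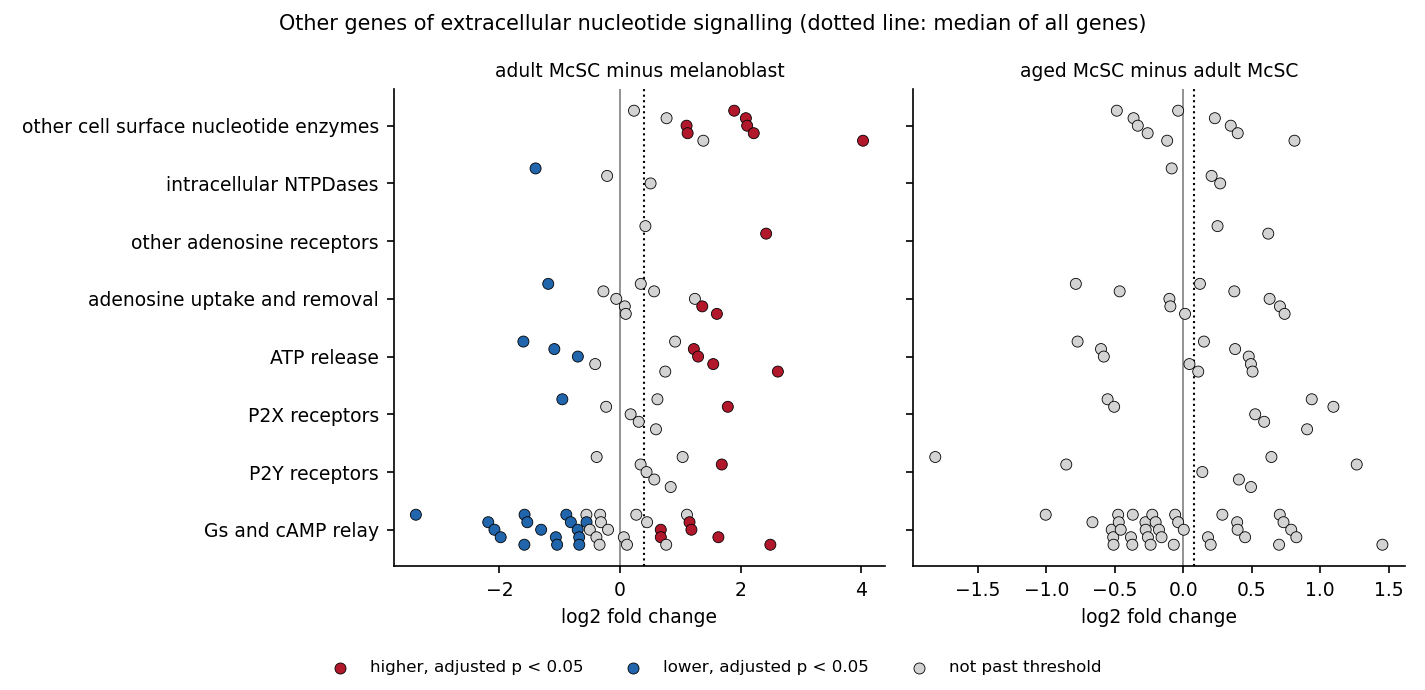
Each point is a pathway gene at its log2 fold change, by role, red where higher and blue where lower at an edgeR adjusted p under 0.05, with a dotted line at the median of all genes. In adult minus melanoblast, 7 of the 10 other cell surface enzymes are red and 16 of 35 cyclic AMP genes blue, and in aged minus adult no point is coloured.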

How the data were processed

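The authors deposited raw read counts per Ensembl gene (mm10), with no normalization, 1 table per library, and no column was left unused. Per the labels' protocols, 20 ng of RNA was amplified to cDNA before library preparation, which can shift the balance of transcripts. Per the submitters' processing notes, the tools were STAR 2.5.2, Trimmomatic 0.36, SAMtools 1.9, FastQC 0.11.8 and DESeq2 1.22.2. Which program counted reads, and with what annotation and strand setting, is not given in the sources used here. Groups and replicate numbers came from sample titles. Symbols, coordinates and exon lengths came from GENCODE M21, which matched 49412 identifiers. The other 259 identifiers, with 0.029% of all counts, were tested as well.

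Counts were tested with edgeR 4.0.16 in R 4.3.3 (TMM factors, filterByExpr, 31961 genes kept, robust quasi-likelihood F test, 1 mean per group over all 9 libraries), with Benjamini-Hochberg adjustment over all genes and a threshold of 0.05. SE values came from the F statistic. TMM factors lay between 0.560 and 0.842 for melanoblasts, 1.09 and 1.21 for adult McSC and 1.38 and 1.52 for aged McSC. Log2 CPM for correlations used a prior count of 2. All 6 members passed the filter. The fit was tested on simulated data. Library pairs within a group differed by more than counting error (ratio of chi-square to degrees of freedom 15.2 to 63.3), so each library counted as 1 replicate.

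The members, the 8 pathway lists and the 8 marker lists were chosen with earlier results of these data known. Named are all members; per pathway list, up to 4 genes with the smallest p among those called between adult McSC and melanoblasts whose higher group averaged at least 2 CPM, or the most abundant gene where none was; the 3 most similar genes per member; and the most abundant gene per marker list. Kit, Ptprc, Npdc1, Scn7a, and the pathway genes named as not passing or as called by limma voom were chosen after their values were seen. Alternatives were DESeq2 1.42.0, limma 3.58.1 voom, RLE factors, TMM factors from abundant genes (mean log2 CPM above 5), no filter, a stricter filter (5 CPM in 2 libraries), a replicate block, longest transcript lengths and leaving out each library. Leaving out melanoblast replicate 3 with adult replicate 2 was added after seeing the data.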

Additional observations from a re-analysis of the deposited data

How the results depend on the processing

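The member count between adult McSC and melanoblasts was 4 under all 17 alternatives, and the pathway count there stayed within 1.5 times of 44. The lists were drawn up with results of these libraries known, so these steady counts are no support for a difference. For aged against adult McSC, the member count of 2 became 3 with limma voom (Nt5e added), 1 with TMM factors from abundant genes, 1 with a stricter filter and 0 to 2 with a library left out. The pathway count of 0 there became 2 with limma voom (Ank and Pde4c) and 0 to 1 with a library left out (Atf1, without aged replicate 1). Between aged McSC and melanoblasts, the member count of 1 became 3 with limma voom, 4 with factors from abundant genes, 2 with no filter, 3 with the stricter filter, 2 with the replicate block, 1 to 2 with a library left out, and 2 without melanoblast replicate 3 and adult replicate 2. The pathway count of 44 there was 26 to 52 when single libraries were left out, and 54 without those 2 libraries together. Calls over all genes moved as well. In aged against adult McSC, they were 17 higher and 80 lower in the main fit and 850 and 670 with limma voom. Between aged McSC and melanoblasts, the main fit called 6514 higher and 6491 lower of 31961 genes. With limma voom these were 10656 and 7538, and with factors from abundant genes 15341 and 1770. The stricter filter gave 4160 and 3451 of 13639 genes. The cause was not tested for any of these changes. With longest transcript lengths, the share of Entpd1 and Entpd2 was 48.6%, 49.5% and 23.4% in melanoblast, adult and aged libraries, as each gene's length enters its level.

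Same-numbered adult and melanoblast libraries deviated with correlations of -0.08, 0.202 and -0.044, inside the range of differently numbered ones (-0.236 to 0.285). Same-numbered aged libraries gave -0.052 and 0.027 with melanoblast and 0.049 and 0.059 with adult libraries. So few libraries cannot show whether the numbers pair them. With the replicate block, calls in aged against adult McSC went from 17 higher and 80 lower to 40 and 132 over all genes, and the member count there was 2. Of 338 values of named pathway genes in adult McSC against melanoblasts, 14 lost a call over the alternatives. Most of those genes were named by smallest p there, so kept calls are no support. In aged against adult McSC, 6 of 432 values lost and 2 gained a call, and 15, none of them called, changed sign. Only Entpd1 and Entpd2 were called there in the main fit, and the 6 lost calls were theirs. Most other values thus belonged to genes called in neither fit. Of the 200 member values against melanoblasts, which carry no test, 24 moved by more than the spread between libraries and 8 changed sign (3 of Entpd1 and 3 of Entpd2 in aged McSC, 2 of Adora2b in adult McSC). In aged McSC against melanoblasts, 12 of these values went past the threshold, 8 of Nt5e, 2 of Entpd1 and 2 of Adora2a. Nothing is read from these crossings. At most 70 counts per library limit both receptor genes.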

Other observations

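The pathway genes with the smallest unadjusted p in aged against adult McSC were named after their values were seen. P2ry12, an ADP receptor gene, was at 0.285 of its adult level (edgeR adjusted p = 0.297), Prkar2b, a regulatory subunit of protein kinase A, at 0.499 (adjusted p = 0.352) and Ank at 0.586 (adjusted p = 0.377). Pde4c, a cyclic AMP phosphodiesterase gene, was at 2.74 times its adult level (adjusted p = 0.409). None passed the threshold over all genes.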
